A study of Homo sapiens with 24 samples.

Results

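The 7 APOBEC3 genes of the human genome, which encode the APOBEC3 cytidine deaminases, were followed through a transcriptome study of interferon gamma (IFNγ) and PD-L1 in renal cancer cells. They were taken by name as APOBEC3A, APOBEC3B, APOBEC3C, APOBEC3D, APOBEC3F, APOBEC3G and APOBEC3H and found by their Ensembl identifiers, which made them 7 of the 39321 genes in the deposited table of counts. Poly(A) RNA had been sequenced from A498 and 786-O, both established lines of clear cell renal carcinoma. The growth text of every library also describes versions of both lines that stably express Renilla luciferase after lentiviral transduction and puromycin, without saying whether these were the cells sequenced. The cells received a pool of siRNAs against PD-L1 (PD-L1si) or a pool without a target (Cnsi) at 20 nM with a lipid reagent, and 24 hours later IFNγ at 50 ng/mL for 24 hours or none. The 4 groups of a line were therefore Cnsi and PD-L1si, each with and without IFNγ, at 3 replicates per group, or 24 libraries in all. The labels speak of a knockout where the protocols describe transient siRNA, and the RNA extraction text lists the groups without PD-L1si although libraries of that group were deposited.

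Some properties of the counts bear on every value that follows. Libraries labelled A498 held between 19256316 and 27907526 counts on genes (median 24745392, 12 libraries), and libraries labelled 786-O between 26807875 and 30350461 (median 28679439, 12 libraries). In a check of line identity 24 of 24 libraries did not match the line in their label, so the lines are called by their labels throughout and the direction of any difference between lines is that of the labels. The study's methods give each line its own sequencing instrument, so that line and instrument cannot be told apart and levels were compared within a line. Nothing in the labels says that replicates were separate cultures, so the p-values measure the spread between these samples, which may be technical. A further 1475 genes had over 1000 counts in sum in the libraries labelled A498 and 0 in all 12 labelled 786-O, and 1.29% of them carried the same identifier version as the later annotation used here, against 70.9% of the 10971 genes with over 1000 counts and at least 1 count in the other line. A gene at 0 in every library labelled 786-O was therefore treated as not measured there, which held for APOBEC3D among the 7.

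APOBEC3 enzymes remove the amino group of cytosine in single-stranded DNA and leave uracil behind. They are known as restriction factors that mutate the DNA copies of retroviruses and other mobile elements, and several are known as interferon-stimulated genes. APOBEC3A and APOBEC3B are also known as sources of mutations in tumour DNA, and lymphoid and myeloid cells are among the tissues where the family is most abundant.

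The genes stand in a row on the forward strand of chromosome 22 (GRCh38), spanning 151327 bases. APOBEC3A (ENSG00000128383.13) lies at chr22:38952741-38963184 and APOBEC3B (ENSG00000179750.16) at chr22:38982347-38992804. APOBEC3C (ENSG00000244509.4) follows at chr22:39014257-39020352, and APOBEC3D (ENSG00000243811.10) at chr22:39021113-39033277 begins 760 bases after its end. APOBEC3F (ENSG00000128394.17) lies at chr22:39040604-39055972, APOBEC3G (ENSG00000239713.9) at chr22:39077067-39087743 and APOBEC3H (ENSG00000100298.15) at chr22:39097224-39104067. These genes arose from each other by duplication, and reads of near-identical stretches may be split between them or lost. Cut into windows of 100 bases, the longest protein-coding transcript of APOBEC3A shared 12.7% of its windows with another member and that of APOBEC3B 15.2%, against 0 for APOBEC3C and APOBEC3H. The shares were 9.23% for APOBEC3D, 5.96% for APOBEC3F and 7.3% for APOBEC3G. For APOBEC3D, 83.2% of the exon bases also lay in exons of another gene on the same strand, a readthrough from APOBEC3C to APOBEC3D that the table of counts does not list, so its counts are uncertain in either line.

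Promoter sequence was at hand in RefSeq (GRCh38.p14) for 1 of the 7 members, APOBEC3H, and is shown because IFNγ acts on transcription. The 250 bases before its RefSeq start, chr22:39096994-39097243 on the forward strand, hold neither the gamma-activated site TTCNNNGAA nor the core of the interferon-stimulated response element, GAAANNGAA, on either strand. Those of IRF1, the interferon regulatory factor taken here as a reference for the response, lie at chr5:132490774-132491023 on the reverse strand and hold the gamma-activated site, written in capitals.
APOBEC3H: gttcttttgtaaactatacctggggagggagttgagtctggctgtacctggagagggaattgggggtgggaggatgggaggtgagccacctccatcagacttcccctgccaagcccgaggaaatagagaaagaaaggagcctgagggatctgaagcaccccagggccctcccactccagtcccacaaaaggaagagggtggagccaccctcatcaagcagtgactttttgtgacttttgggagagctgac
IRF1: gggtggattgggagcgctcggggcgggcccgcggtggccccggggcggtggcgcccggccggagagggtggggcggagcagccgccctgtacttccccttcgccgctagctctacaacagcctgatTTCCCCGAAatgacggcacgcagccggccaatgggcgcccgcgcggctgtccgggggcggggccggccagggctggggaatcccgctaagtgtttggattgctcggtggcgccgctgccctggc
Over the 27305 promoters of the same table, in slightly longer windows, 7.88% held TTCNNNGAA and 8.29% held GAAANNGAA. A match is thus common by its letters alone, and a missing match says only that these letters are not in the window. Of 8 promoters of IFNγ signalling genes, IRF1 included, 2 held TTCNNNGAA and 1 held GAAANNGAA. Of 11 promoters of other restriction factors, 4 held the first and 5 the second.

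CD274, which encodes PD-L1, was read to check the siRNA. Values are given as CPM, with library sizes scaled. Among libraries labelled A498, CD274 stood at 191, 199 and 191 CPM with Cnsi IFNγ and at 26.9, 28.5 and 27.7 with PD-L1si IFNγ. Without IFNγ the values were 3.99, 5.49 and 5.74 with Cnsi and 0.81, 1.01 and 0.926 with PD-L1si. Every PD-L1si library lay below every Cnsi library of the same treatment, by a log2 fold change of -2.81 (SE 0.0547, adjusted p = 1.6e-29) under IFNγ and -2.47 (SE 0.159, adjusted p = 6.5e-15) without it. Among those labelled 786-O the values were 55.7, 59.6 and 65.8 CPM with Cnsi IFNγ and 32.7, 30.8 and 30.6 with PD-L1si IFNγ, and 3.87, 4.18 and 4.18 with Cnsi against 1.46, 1.21 and 1.9 with PD-L1si. The groups were separate here too, with log2 fold changes of -0.94 (SE 0.0702, adjusted p = 6.7e-10) and -1.42 (SE 0.142, adjusted p = 9.7e-08). The siRNA labels thus fit the target in all 24 libraries.

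Without IFNγ, APOBEC3C and APOBEC3B made up most of the family's transcripts in either line. Levels between genes were compared as CPM per kilobase (kb) of exon. In Cnsi libraries labelled A498, APOBEC3C stood at 21.8 ± 0.519 CPM per kb (SD, n = 3) and APOBEC3B at 11.1 ± 0.957, followed by APOBEC3F at 0.945 ± 0.0419, APOBEC3G at 0.716 ± 0.103 and APOBEC3H at 0.106 ± 0.0367. APOBEC3A at 0.0396 ± 0.0198 and APOBEC3D at 0.021 ± 0.0182 closed the order and did not differ beyond their summed SD. Cnsi libraries labelled 786-O had APOBEC3C at 39.1 ± 0.345, APOBEC3B at 12.9 ± 0.181 and APOBEC3F at 1.8 ± 0.115 CPM per kb, with APOBEC3H at 0.615 ± 0.134, APOBEC3A at 0.0738 ± 0.0291 and APOBEC3G last at 0.0106 ± 0.00742. APOBEC3G thus differed most in rank, standing next to APOBEC3F under the first label and at 1 to 3 counts per library under the second. APOBEC3C took 62.8% of the sum per kb of the 7 members in Cnsi libraries under the label A498, and 71.7% of the sum of the 6 measured under the label 786-O.

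With IFNγ the summed level of the family moved in opposite directions under the 2 labels. It was 34.8 ± 1.45 CPM per kb in Cnsi and 21.9 ± 0.551 in Cnsi IFNγ libraries labelled A498 (SD, n = 3), against 54.6 ± 0.361 and 91.3 ± 2.8 under the other label. No library of a Cnsi IFNγ group overlapped with those of the Cnsi group of its line in this sum, which was not tested. The share of APOBEC3G in the sum went from 2.06% to 13.2% under the label A498, and under the label 786-O it went from 0.0194% to 3.97%. APOBEC3C stayed above APOBEC3B per kb in all 8 groups, with ratios between 1.82 and 3.03. Lengths taken from the longest transcript in place of all exons kept the whole order in 5 of the 8 groups, since APOBEC3G changed places with APOBEC3F or APOBEC3B in the others. That length gave APOBEC3G 5.59 CPM per kb in place of 2.89 in Cnsi IFNγ libraries labelled A498 and 7.01 in place of 3.62 in those labelled 786-O, so its share of the sum depends on the length taken.

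**Figure D1:**
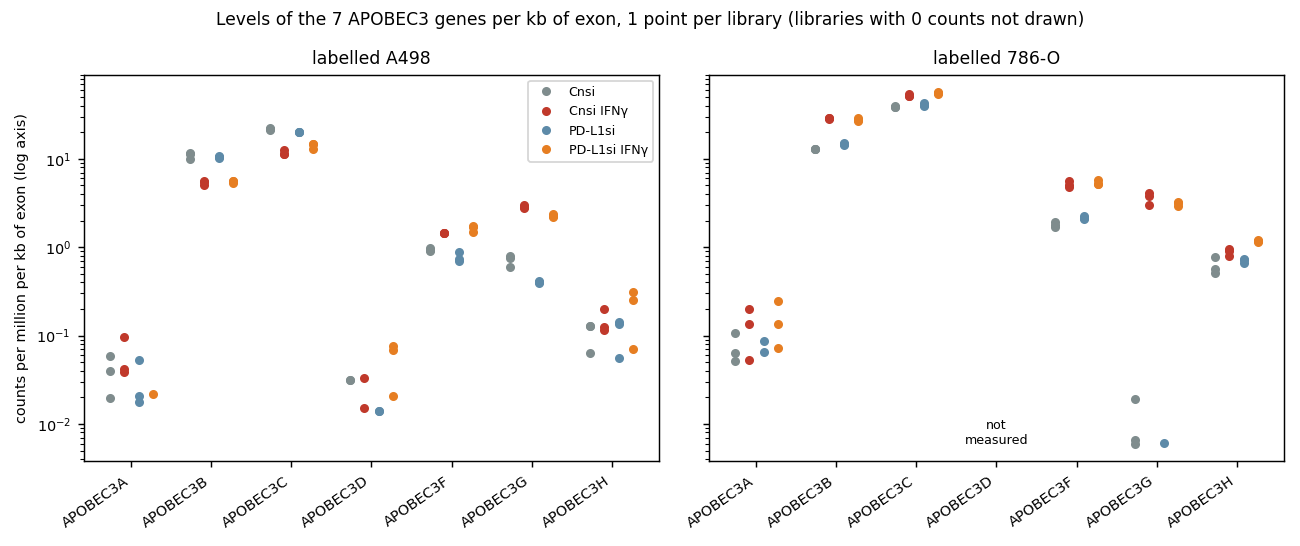
Levels of the 7 APOBEC3 genes in each library, as CPM per kb of exon on a log axis, by group (colour) for libraries labelled A498 (left) and 786-O (right). Each point is 1 library, and libraries with 0 counts are not drawn. APOBEC3C and APOBEC3B stand highest in every group, and APOBEC3G labelled 786-O lies near the bottom without IFNγ and near APOBEC3F with it.

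With the control siRNA, IFNγ lowered APOBEC3B and APOBEC3C and raised APOBEC3F and APOBEC3G in libraries labelled A498, while in those labelled 786-O it raised APOBEC3B, APOBEC3F and APOBEC3G and lowered none of the members. A change is counted when the adjusted p of edgeR's quasi-likelihood test over all genes is under 0.05 and the log2 fold change is over 0.5 in size. Of the 5 members tested under the label A498, 4 passed (2 higher, 2 lower), in a comparison where 36.8% of all 20916 genes tested passed. Of the 6 tested under the label 786-O, 3 passed (all higher), against 18.5% of 21209 genes. APOBEC3G is among these 3 and passed the count filter through its IFNγ groups alone, so that its place in the count depends on the outcome. The median log2 fold change of the members tested was 0.46 beside -0.03 for all genes under the label A498, and 0.99 beside 0.0049 under the label 786-O. The first median is the value of APOBEC3H, which rests on 10 and 13 counts and ran from 0.18 to 0.61 with a library left out, while the 4 members that passed lie on either side of it. The second median lies between APOBEC3A at 0.81, whose libraries overlapped, and APOBEC3B at 1.16. Without APOBEC3G it would be the value of APOBEC3A. These are bulk samples, in which fewer cells of a type and less RNA per cell cannot be told apart.

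APOBEC3A and APOBEC3B can act on nuclear DNA. APOBEC3B stood at 21.9, 22.3 and 19 CPM in the Cnsi libraries labelled A498 and at 9.73, 10.7 and 10.2 with Cnsi IFNγ. The IFNγ libraries were all lower, and the log2 fold change of -1.04 (SE 0.0749, adjusted p = 1.3e-14) made APOBEC3B 2.06-fold lower. Under the label 786-O the same gene stood at 24.9, 24.3 and 24.3 CPM with Cnsi and at 54, 55.4 and 55 with Cnsi IFNγ. Here the IFNγ libraries were all higher, with a log2 fold change of 1.16 (SE 0.052, adjusted p = 7.5e-16), or 2.23-fold. APOBEC3A, best known from myeloid cells, had 6 counts in sum over the 3 Cnsi libraries labelled A498 and 8 with Cnsi IFNγ, too few to be tested. With label 786-O it had 4, 6 and 3 counts in Cnsi libraries and 3, 11 and 7 in Cnsi IFNγ libraries. These ranges overlap, and the ratio, taken here and below on counts scaled by library size, was 1.78 and had a 95% counting interval of 0.85 to 3.87 (log2 fold change 0.81, SE 0.632, adjusted p = 0.338, running from 0.35 to 1.20 with a library left out). Counting intervals, exact binomial here, cover counting error only. The counts of APOBEC3A came to between 0.152% and 1.11% of those of APOBEC3B over the 8 groups, and whether they are reads of APOBEC3B placed on the wrong copy was not tested.

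**Figure D2:**
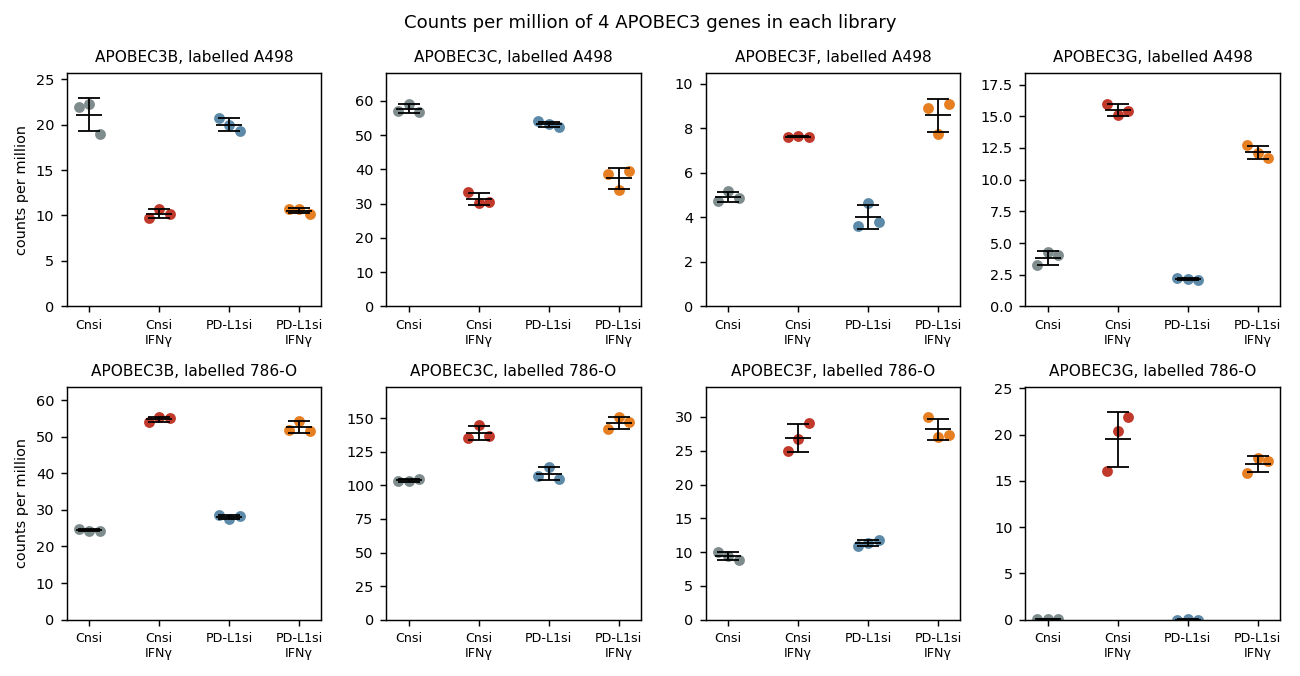
CPM of APOBEC3B, APOBEC3C, APOBEC3F and APOBEC3G in each library (points), with the mean and SD of 3 libraries (bars), for libraries labelled A498 (upper row of panels) and 786-O (lower row). APOBEC3B and APOBEC3C lie lower with IFNγ in the upper panels and higher in the lower panels, while APOBEC3F and APOBEC3G lie higher with IFNγ in all 4 of their panels.

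APOBEC3C, a small enzyme with 1 deaminase domain and weak antiviral activity, had the most counts of the 7. In libraries labelled A498 it went from 57.1, 59.2 and 56.7 CPM with Cnsi to 33.5, 30.3 and 30.5 with Cnsi IFNγ. All IFNγ libraries were lower, with a log2 fold change of -0.88 (SE 0.055, adjusted p = 3.1e-16), or 1.83-fold lower. With label 786-O, Cnsi libraries held 103, 103 and 105 CPM and Cnsi IFNγ libraries 135, 145 and 137. Each of these IFNγ libraries was higher than each Cnsi library, and the log2 fold change of 0.43 (SE 0.0474, adjusted p = 5.0e-08) was significant by its p but smaller than the size counted as a change.

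APOBEC3D, APOBEC3F, APOBEC3G and APOBEC3H are known for acting on retroviral DNA in the cytoplasm. APOBEC3F stood at 4.75, 5.17 and 4.86 CPM with Cnsi and at 7.63, 7.64 and 7.6 with Cnsi IFNγ in libraries labelled A498. The IFNγ libraries all lay above the Cnsi libraries, with a log2 fold change of 0.63 (SE 0.104, adjusted p = 2.4e-06). Labelled 786-O, APOBEC3F went from 10, 9.4 and 8.81 to 24.9, 26.7 and 29.1 CPM. Again the groups were separate, with a log2 fold change of 1.51 (SE 0.0779, adjusted p = 1.4e-14), or 2.86-fold.

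APOBEC3G, the member packaged into HIV particles that lack the viral Vif protein, showed the largest response of the members tested in either line. Libraries labelled A498 held 3.23, 4.29 and 4.03 CPM with Cnsi and 16, 15.1 and 15.4 with Cnsi IFNγ. Every IFNγ library was above every Cnsi library, by a fitted 4.02-fold between the groups (log2 fold change 2.01, SE 0.0946, adjusted p = 7.6e-20). In those labelled 786-O the Cnsi libraries had 1, 1 and 3 counts of it, and the Cnsi IFNγ libraries 449, 551 and 555. The Cnsi libraries were close to empty and the IFNγ libraries reached 16.1, 20.4 and 21.9 CPM. The scaled ratio was 342 with a 95% counting interval of 146 to 1056. The fitted log2 fold change of 8.32 (SE 0.238, adjusted p = 4.1e-20) ran from 8.03 to 8.99 with a library left out. This SE was derived from the test statistic and understates the error, since the counting interval is wider.

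APOBEC3H, whose protein is unstable in many of its human variants, had 4, 4 and 2 counts with Cnsi and 6, 4 and 3 with Cnsi IFNγ in libraries labelled A498. These overlap, and the ratio of 1.39 had a counting interval of 0.563 to 3.54 (adjusted p = 0.54). Labelled 786-O it had 22, 18 and 28 counts with Cnsi and 33, 31 and 25 with Cnsi IFNγ. As CPM the 3 IFNγ libraries, at 0.985 to 1.18, lay just above the Cnsi libraries, at 0.643 to 0.96, and the log2 fold change of 0.52 (SE 0.225) did not pass the correction (adjusted p = 0.07). Leaving out Cnsi replicate 3 moved it to 0.71, which passed. APOBEC3D had 0 to 4 counts in each library labelled A498, with sums of 4 and 3 over the Cnsi and Cnsi IFNγ groups and of 2 and 9 over those with PD-L1si, and was not tested. A count of 0 in a library allows up to 3 counts, or at most 0.158 CPM in those libraries.

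IFNγ in cells with PD-L1si gave the same directions for APOBEC3B, APOBEC3C, APOBEC3F and APOBEC3G. Of the 5 members tested under the label A498, 4 passed (33.5% of all genes did), and of the 6 under the label 786-O, 4 passed (18.4% of all genes did). APOBEC3G entered the test under the label 786-O through its IFNγ groups alone here too. The medians of the members were 0.88 beside -0.02 for all genes and 1.11 beside 0.00064. The 0.88 is that of APOBEC3H labelled A498, from 11 and 16 counts (SE 0.579, adjusted p = 0.197), and ran from 0.47 to 1.33 with a library left out. APOBEC3B labelled A498 fell from 20.7, 20 and 19.3 CPM to 10.7, 10.7 and 10.2, with no overlap (log2 fold change -0.92, adjusted p = 6.0e-13). APOBEC3C fell from 54, 53.2 and 52.5 to 38.7, 33.9 and 39.5 CPM, all IFNγ libraries being lower (log2 fold change -0.51, SE 0.0547, adjusted p = 4.4e-10). This value was close to the threshold, and came to -0.49 without PD-L1si replicate 1 and -0.44 without PD-L1si IFNγ replicate 2. APOBEC3F rose from 3.63, 4.63 and 3.81 to 8.9, 7.75 and 9.11 CPM (log2 fold change 1.11, adjusted p = 3.3e-11) and APOBEC3G from 2.25, 2.15 and 2.1 to 12.7, 12.1 and 11.7 CPM (log2 fold change 2.48, adjusted p = 1.8e-20). For both genes every IFNγ library exceeded every PD-L1si library. Not tested for want of counts, APOBEC3D had 2 and then 9 counts in sum, a ratio of 5.77 with a counting interval of 1.2 to 54.9, where the ratio in Cnsi cells was 0.802 (0.117 to 4.74). APOBEC3A had 5 and then 1, a ratio of 0.257 (0.00543 to 2.29), where it was 1.43 (0.434 to 4.99) in Cnsi cells.

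The same comparison labelled 786-O raised APOBEC3B, APOBEC3F, APOBEC3G and APOBEC3H. APOBEC3B went from 28.6, 27.6 and 28.2 to 51.9, 54.4 and 51.5 CPM (log2 fold change 0.90, adjusted p = 1.2e-13). APOBEC3F went from 10.9, 11.3 and 11.8 to 30, 27.1 and 27.4 CPM (log2 fold change 1.31, adjusted p = 1.8e-13). In both the groups were far apart against the spread of the replicates. APOBEC3G had 0, 1 and 0 counts in PD-L1si libraries and 411, 508 and 475 once IFNγ was added, a ratio of 1513 with a counting interval of 271 to 59787, whose width comes from the single count in its denominator. APOBEC3H had 24, 28 and 27 counts in PD-L1si libraries and 39, 43 and 40 in PD-L1si IFNγ libraries (log2 fold change 0.74, SE 0.208, adjusted p = 0.00567). Its 3 IFNγ libraries were all higher, and the low counts of this gene make the size uncertain. APOBEC3C, from 107, 114 and 105 to 142, 151 and 147 CPM, differed by 0.43 on the log2 scale (adjusted p = 3.7e-08), again below the size counted as a change. APOBEC3A had 5, 4 and 0 counts and then 13, 8 and 4, which overlap, with a ratio of 3.01 and a counting interval of 1.36 to 7.34 (adjusted p = 0.0659). It passed with no filter on low counts (log2 fold change 1.54), without PD-L1si replicate 1 (2.09) and without PD-L1si IFNγ replicate 3 (1.89), against 1.55 with all libraries and 0.98 to 2.09 over the libraries left out.

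**Figure D3:**
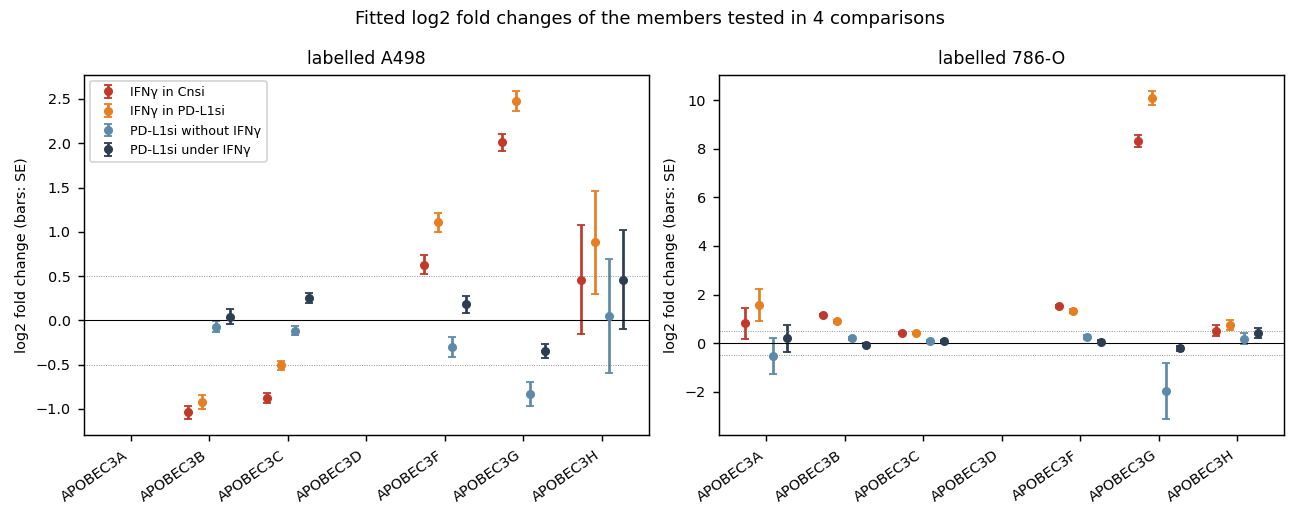
Fitted log2 fold changes (points) with their SE (bars) of the APOBEC3 genes tested in 4 comparisons, for libraries labelled A498 (left) and 786-O (right), on separate vertical axes. Dotted lines mark a log2 fold change of 0.5 in either direction, and genes with no point were not tested. The IFNγ comparisons lie below 0 for APOBEC3B and APOBEC3C on the left and above 0 for all genes tested on the right, and the PD-L1si comparisons lie near 0 apart from APOBEC3G and the genes with few counts.

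Whether PD-L1si moved these genes was read against Cnsi under the same treatment, which shares libraries with the comparisons already given. Under IFNγ 0 of 5 members passed under the label A498 (10.1% of all genes did) and 0 of 6 under the label 786-O (3.03% did), by edgeR and by DESeq2 alike. At an unadjusted p under 0.05 there were 2 and 1. In libraries labelled A498 these were APOBEC3C, higher in each PD-L1si IFNγ library by a log2 fold change of 0.25 (SE 0.0585, adjusted p = 7.8e-04), and APOBEC3G, lower in each by -0.35 (SE 0.0794, adjusted p = 5.9e-04). Both were smaller than the size counted as a change. Labelled 786-O it was APOBEC3G, with a log2 fold change of -0.21 (SE 0.1, adjusted p = 0.185) and overlapping libraries. APOBEC3B differed by 0.04 (adjusted p = 0.756) and -0.06 (adjusted p = 0.504) under the labels A498 and 786-O. The medians of the members tested were 0.18 beside 0.01 for all genes and 0.07 beside 0.01.

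Without IFNγ, PD-L1si lowered APOBEC3G in the libraries labelled A498. The member was at 2.25, 2.15 and 2.1 CPM with PD-L1si against 3.23, 4.29 and 4.03 with Cnsi, 1.77-fold lower with no overlap (log2 fold change -0.83, SE 0.135, adjusted p = 7.0e-06). It was 1 of the 5 members tested, in a comparison that 8.48% of all genes passed. At an unadjusted p under 0.05 there were 3. The other members were APOBEC3F, at -0.30 on the log2 scale (SE 0.115, adjusted p = 0.0436), and APOBEC3C, at -0.12 (SE 0.0513, adjusted p = 0.0858), both with all PD-L1si libraries lower. Labelled 786-O, 0 of 6 members passed by edgeR and by DESeq2 (2.81% of all genes did), and 2 had an unadjusted p under 0.05. These were APOBEC3B, with a log2 fold change of 0.20 (SE 0.0537, adjusted p = 0.0136), and APOBEC3F, with 0.27 (SE 0.083, adjusted p = 0.0323), and in both each PD-L1si library was above each Cnsi library. APOBEC3G there had 5 counts in sum with Cnsi and 1 with PD-L1si, a ratio of 0.197 with a counting interval of 0.00416 to 1.76, so a difference was not detectable at this depth. It passed the count filter through its IFNγ groups alone. The medians of the members were -0.12 beside -0.0031 for all genes under the label A498 and 0.13 beside -0.00033 under the label 786-O.

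The interaction asks whether the IFNγ effect itself differed between PD-L1si and Cnsi. In libraries labelled A498 0 of 5 members passed by edgeR and by DESeq2 (2.45% of all genes did), and 3 had an unadjusted p under 0.05. These were APOBEC3C at 0.37 (SE 0.0778, adjusted p = 0.00138), APOBEC3F at 0.48 (SE 0.151, adjusted p = 0.0392) and APOBEC3G at 0.48 (SE 0.157, adjusted p = 0.0511) on the log2 scale. A positive value means a more positive IFNγ effect with PD-L1si, which for APOBEC3C is a smaller fall. Leaving out a library brought 1 member past the threshold in 3 cases, APOBEC3F at 0.56 without PD-L1si replicate 2 and at 0.54 without PD-L1si IFNγ replicate 2, and APOBEC3G at 0.59 without Cnsi replicate 1. Labelled 786-O, 0 of 6 passed by either tool (0.099% of all genes did) and 1 had an unadjusted p under 0.05, APOBEC3B at -0.26 (SE 0.0729, adjusted p = 0.219). APOBEC3G is among these 6 and passed the count filter through its IFNγ groups alone. Its value of 1.77 (SE 1.14, adjusted p = 0.731) also enters the median of the members under this label. The medians of the members were 0.42 beside 0.04 and 0.11 beside 0.01 for all genes. The 0.42 is the value of APOBEC3H (SE 0.862, adjusted p = 0.839), which ran from 0.01 to 0.86 with a library left out.

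The difference between the labels in the IFNγ response was tested itself, as labelled 786-O minus labelled A498. Of the 5 members tested in both lines 4 passed, all of them more positive under the label 786-O, against 28.4% of 17999 genes. APOBEC3G is among these 4 and passed the count filter under the label 786-O through its IFNγ groups alone. The differences were 2.19 for APOBEC3B (SE 0.0874, adjusted p = 7.4e-23), 1.29 for APOBEC3C (SE 0.073, adjusted p = 3.7e-18) and 0.88 for APOBEC3F (SE 0.13, adjusted p = 3.6e-07) on the log2 scale. For APOBEC3B and APOBEC3C the response had opposite signs under the labels, and for APOBEC3F the same sign and another size. APOBEC3G differed by 6.28 (SE 0.328, adjusted p = 3.2e-19), running from 6.00 to 6.94 with a library left out. Its size is uncertain beyond that SE, as it rests on the near-empty Cnsi libraries labelled 786-O. The counting interval of the response began at 146-fold there, beside a fitted 4.02-fold under the label A498. That interval pools the libraries and covers counting error only, while replicates differed by more than that. APOBEC3H differed by 0.05 (SE 0.768, adjusted p = 0.964) and ran from -0.09 to 0.34 with a library left out, so nothing is said on its direction. The median difference of the members was 1.29 beside 0.04 for all genes. For PD-L1si under IFNγ 0 of 5 members differed between the labels by edgeR and by DESeq2 (5.6% of all genes did) and 1 had an unadjusted p under 0.05, APOBEC3C at -0.16 (SE 0.0748, adjusted p = 0.143). The medians there were -0.09 and 0.0011.

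An antisense gene, APOBEC3B-AS1, overlaps the end of APOBEC3B on the opposite strand, sharing 244 exon bases, which are 12.9% of those of APOBEC3B. The kit named in the labels keeps the strand and the study's methods name a stranded setting of the counting. Yet antisense genes lying wholly in exons of a host gene on the other strand had a median of 1.59 times the host's counts per base under the label A498 (quartiles 0.783 to 2.36, 135 pairs) and 1.56 times under the label 786-O (quartiles 0.554 to 2.22, 137 pairs). The cause was not tested, and reads of APOBEC3B and of its antisense partner cannot be told apart by these counts. APOBEC3B-AS1 held 0.247 to 0.371 times the counts of APOBEC3B over the 12 libraries labelled A498 and 0.299 to 0.365 times over those labelled 786-O. With IFNγ in Cnsi cells its level went from 5.79 ± 0.629 to 3.23 ± 0.34 CPM labelled A498 (SD, n = 3), a log2 fold change of -0.84 (adjusted p = 1.8e-07), and from 8.12 ± 0.802 to 19.1 ± 0.783 CPM labelled 786-O, a log2 fold change of 1.23 (adjusted p = 1.0e-11). It thus moved the way APOBEC3B did under either label, by a difference between labels of 2.07 (SE 0.149, adjusted p = 5.5e-15).

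Genes beside the cluster were read for comparison. Of 32 annotated genes within 250 kb of it or inside it that are not members, 18 were tested in each line. With IFNγ in Cnsi cells 2 were higher and 6 lower under the label A498 (median log2 fold change -0.20), and 3 were higher and 2 lower under the label 786-O (median -0.06), where 36.8% and 18.5% of all genes passed. APOBEC3B-AS1 is among these neighbours. GTPBP1, on the side of APOBEC3A, rose under either label, with log2 fold changes of 0.72 (adjusted p = 3.5e-17) and 0.62 (adjusted p = 1.2e-09). SUN2, beside it, fell by 0.76 on the log2 scale (adjusted p = 7.4e-18) under the label A498, and under the label 786-O its value of -0.43 (adjusted p = 9.5e-08) was smaller than the size counted. CBX6, the nearest protein-coding neighbour on that side, had log2 fold changes of 0.0047 (adjusted p = 0.941) and 0.28 (adjusted p = 2.1e-05). CBX7, the nearest on the side of APOBEC3H, had -0.09 (adjusted p = 0.416) and -0.01 (adjusted p = 0.949). PDGFB, further out, had 0.13 (adjusted p = 0.0449) under the label A498 and fell by 0.75 on the log2 scale (adjusted p = 1.3e-07) under the label 786-O. SYNGR1 fell by 0.69 on the log2 scale under the label A498 (adjusted p = 0.0155), a call that ended without Cnsi replicate 1 (-0.62), without Cnsi IFNγ replicate 1 (-0.58) and with DESeq2 (-0.68). Of the non-coding genes around SUN2, ENSG00000244491 fell by 0.86 and 0.50 on the log2 scale under the labels A498 and 786-O, the second call ending without Cnsi replicate 3 (-0.41), Cnsi IFNγ replicate 1 (-0.42) or Cnsi IFNγ replicate 3 (-0.49), while ENSG00000230149 and ENSG00000225450 fell by 0.93 and 0.70 under the label A498. ENSG00000272669 rose by 0.95 and 1.96, the first call ending without Cnsi replicate 2 (0.56), Cnsi IFNγ replicate 1 (0.90) or Cnsi IFNγ replicate 3 (0.88) and with DESeq2 (0.97). These non-coding genes lie within the span of SUN2 on the opposite strand, so the limit on strands given for APOBEC3B-AS1 holds for them too. Whether their counts are reads of SUN2 was not tested, and the 6 lower under the label A498 may not be separate responses. The others tested, PRDX3P1, ENSG00000273096, ENSG00000273076, DNAL4, NPTXR, ENSG00000279833, RPL3 and SNORD83A, did not pass, ENSG00000273076 being tested under the label 786-O and NPTXR under the label A498 alone.

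**Figure D4:**
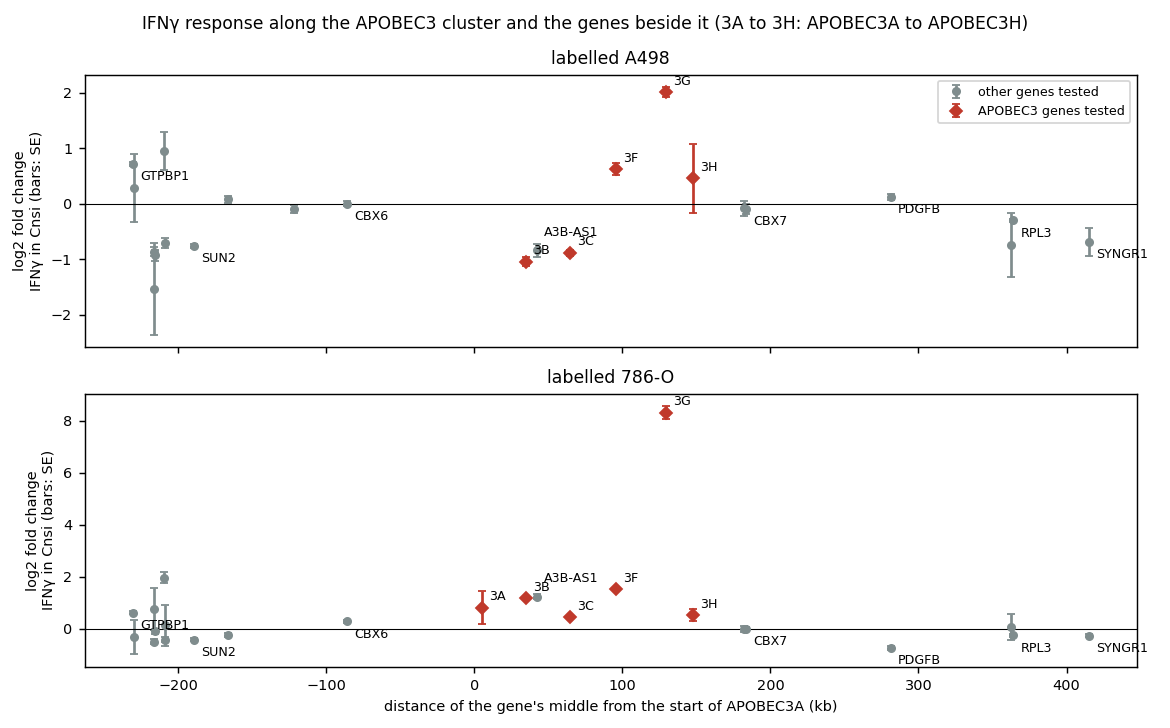
Log2 fold change with IFNγ in Cnsi cells (points, with SE as bars) of the APOBEC3 genes (red, named 3A to 3H) and of the other genes tested within 250 kb (grey), against the distance of the gene's middle from the start of APOBEC3A in kb, for libraries labelled A498 (above) and 786-O (below), on separate vertical axes. APOBEC3B and APOBEC3C lie below 0 above and over 0 below. Of the members' neighbours, CBX7 lies close to 0 in both panels, and CBX6 lies at 0.0047 above and 0.28 below.

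Several lists of related genes show the setting in which the members moved, in a comparison that 36.8% of all genes passed under the label A498 and 18.5% under the label 786-O. Among 15 other restriction factors of retroviruses, IFNγ in Cnsi cells raised 10 of the 15 tested and lowered 0 under the label A498 (median log2 fold change 1.46), and raised 10 and lowered 1 of the 14 tested under the label 786-O (median 1.54). GBP5, a guanylate-binding protein that impairs viral envelope proteins, went from 0.345 ± 0.122 to 2369 ± 70.8 CPM labelled A498 and from 0.422 ± 0.204 to 499 ± 4.78 labelled 786-O. MX2, which blocks nuclear entry of HIV, rose by log2 fold changes of 6.00 and 5.62, and IFITM1, a membrane protein that hinders virus entry, by 7.52 and 6.59. SAMHD1, which depletes nucleotides for reverse transcription, rose by 3.02 under the label A498 and was at 0, not measured, under the label 786-O, while TRIM22 rose by 2.35 and 2.62 and IFITM3 by 2.15 and 1.95. SLFN11, among those counted as higher under the label 786-O, was at 0.0459 CPM in Cnsi and 0.27 in Cnsi IFNγ libraries, and its Cnsi group did not itself reach the count needed for a test. SERINC5 was the gene lowered under the label 786-O, by a log2 fold change of -0.59. IRF1 rose by 4.62 and 4.77 on the log2 scale, and the difference between the labels of 0.14 (SE 0.0649, adjusted p = 0.0689) did not pass. Among the restriction factors tested in both lines, these differences ran from -2.53 for GBP5 to 2.46 for SLFN11, and both passed. IFITM1 at -0.95 and BST2 at 0.90 passed too, so differences between the labels went in either direction.

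Genes described as regulators of APOBEC3B are of interest since APOBEC3B went opposite ways. Of 10 in the list, 5 rose and 1 fell of the 10 tested under the label A498 (median log2 fold change 0.42), and 2 rose and 0 fell of the 8 tested under the label 786-O (median 0.38). The NF-κB subunits RELA, RELB and NFKB2 rose under the label A498 by 1.45, 1.41 and 1.31. Under the label 786-O RELB rose by 0.75, while RELA had 0.41 and NFKB2 0.44, and the differences between the labels, -1.05, -0.66 and -0.87, passed for all 3 genes. The subunit NFKB1 had 0.50 and 0.51, with a difference between the labels of 0.0019 (SE 0.0722, adjusted p = 0.987). Its call under the label A498 ended without Cnsi replicate 3 (0.49) or Cnsi IFNγ replicate 3 (0.50). Its call under the label 786-O ended with no filter (0.49), with protein-coding genes (0.50), with the groups compared fitted alone (0.49) and without Cnsi replicate 1 (0.50), Cnsi replicate 2 (0.48), Cnsi IFNγ replicate 2 (0.49) or Cnsi IFNγ replicate 3 (0.48), which leaves 1 gene of the list higher there. LIN54 rose by 0.64 under the label A498 and had 0.35 under the label 786-O. MYBL2, a transcription factor of the cell cycle, fell by 0.84 on the log2 scale under the label A498 and had -0.24 under the label 786-O, a difference of 0.59 (SE 0.0637, adjusted p = 2.9e-10). Their part in the level of APOBEC3B was not tested.

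Uracil left by APOBEC3 enzymes is handled by base excision repair. Of 13 genes of uracil and abasic site repair, 1 rose and 4 fell under the label A498 (median log2 fold change -0.30), or 5 of 13 in a comparison that 36.8% of all genes passed, and 0 of the 11 tested passed under the label 786-O by edgeR (median 0.06). PARP1, a sensor of DNA strand breaks, had -0.91 and 0.04, APEX1, the main nuclease for abasic sites, had -0.61 and 0.06, and their differences between the labels of 0.94 and 0.66 passed. HMCES, which shields abasic sites, had -0.45 and 0.41, and its difference of 0.85 passed too. POLB, the polymerase of this repair, was the gene that rose under the label A498, by 0.58 (adjusted p = 4.8e-07), and had 0.45 under the label 786-O. The call of LIG3, a DNA ligase, at -0.51 under the label A498 ended with DESeq2 (-0.49), relative log expression scaling (-0.49), the groups compared fitted alone (-0.49) and without Cnsi replicate 2 (-0.48) or Cnsi IFNγ replicate 2 (-0.48). UNG, the main uracil glycosylase, fell by 0.57 on the log2 scale under the label A498 and was at 0, not measured, under the label 786-O. Of 6 host partners of the HIV Vif ligase, which marks APOBEC3 proteins for degradation, 0 of 6 and 0 of the 4 tested passed with IFNγ (medians 0.04 and 0.08). Of the RNA adenosine deaminases, ADAR rose under either label, by 1.55 and 1.13, and ADARB1 rose by 1.12 under the label A498 and had -0.08 under the label 786-O.

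**Figure D5:**
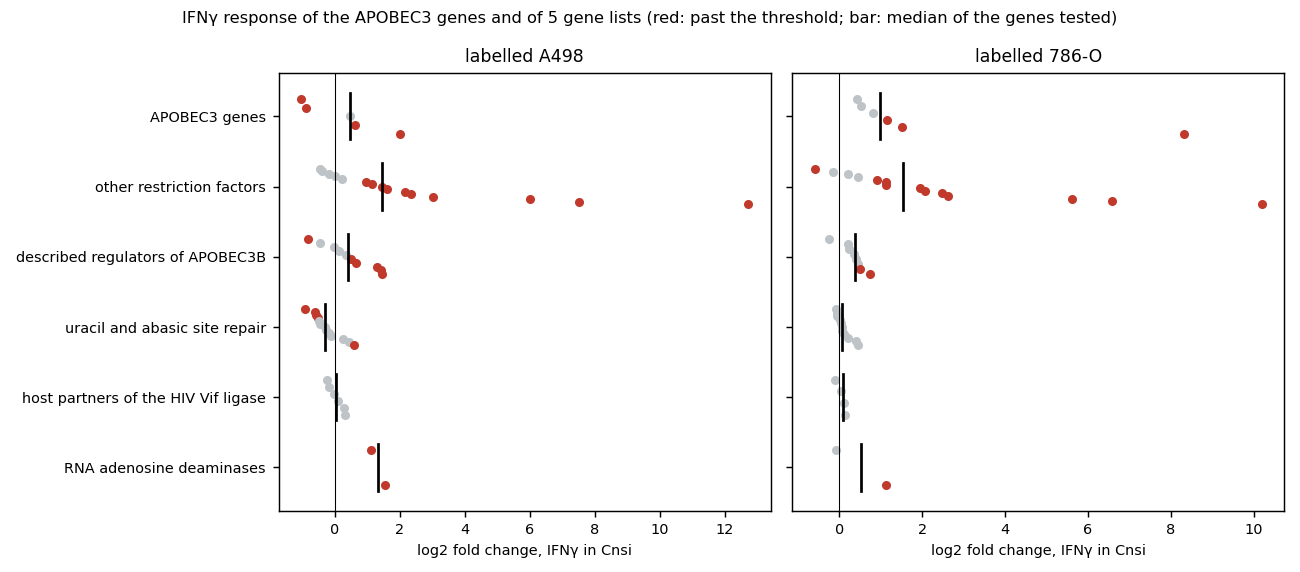
Log2 fold change with IFNγ in Cnsi cells of the APOBEC3 genes tested and of 5 lists of related genes (points, 1 per gene; red where the threshold was passed; vertical bars, median of the genes tested), for libraries labelled A498 (left) and 786-O (right). The restriction factors reach the highest value in either panel, and the APOBEC3 genes lie on both sides of 0 on the left and above 0 on the right.

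For each member with a mean of at least 1 CPM in a line, the genes most like it were named by Pearson's r of log2 (CPM + 1) over the 12 libraries of the line, which fall into the 4 groups, among 14963 other genes under the label A498 and 14170 under the label 786-O. Nothing is said here of shared function or control. Labelled A498, these were SLC29A3 (r = 0.995), HDLBP (0.994) and VOPP1 (0.994) for APOBEC3B, and LYPLA2 (0.990), OLFML2B (0.989) and MXD4 (0.988) for APOBEC3C. They were MGST1 (0.981), MAP4K3-DT (0.981) and FARSB (0.980) for APOBEC3F, and CEBPB, TRIM14 and HELZ2 (each 0.998) for APOBEC3G. Labelled 786-O, the names differed for each of these members. They were SLC2A5 (0.999), IL4I1 (0.999) and CX3CL1 (0.996) for APOBEC3B, CPQ (0.994), NUMB (0.992) and RAB20 (0.992) for APOBEC3C, and SOCS1 (0.996), JDP2 (0.995) and DHX58 (0.994) for APOBEC3F. For APOBEC3G they were OPTN (1.000), HLA-DOA (0.999) and HLA-DQB2 (0.999), and for APOBEC3H UBOX5 (0.975), UTP14A (0.965) and TEX41 (0.963).

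Markers of cell types were read because several members are abundant in blood cells, counting a marker as present at a mean of 1 CPM or more over the 12 libraries of a line, and leaving out as not measured those at 0 in all libraries labelled 786-O. Of 9 renal carcinoma markers, 9 reached it under the label A498 and 7 of the 8 measured under the label 786-O, where PAX2 was at 0, with VIM the most abundant at 3791 and 2061 CPM and sums of 4722 to 6332 and 4089 to 6656 CPM per library. Of 6 T lymphocyte markers, CD3E and CD3G were not found by name among the genes counted, in either line. Of the others 0 reached it under the label A498, where CD2 was at 0 and the sum did not exceed 0.0795 CPM in any library. Under the label 786-O, CD3D, CD3E, CD3G and CD8A were not measured, and CD2 and PTPRC did not reach it. Of the 5 myeloid markers, FCGR3A was likewise not found among the genes counted. Of the others 0 reached it under the label A498 and 1 of the 3 measured under the label 786-O, ITGAM at 8.08 CPM, with CSF1R at 0 there. Of the 3 endothelial markers 0 reached it under the label A498, where CDH5 was at 0, and 0 of the 2 measured under the label 786-O, where VWF was at 0, PECAM1 had a mean of 0.541 CPM and the sum reached 1.21 CPM in a library. Presence of T lymphocytes in the libraries labelled 786-O can therefore not be judged from the markers at 0 or not found.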

How the data were processed

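RNA sequencing counts of 24 libraries were analysed. Per the labels and the study's methods, the authors converted reads with bcl2fastq 2.19.0, trimmed them with Trimmomatic 0.36.6, aligned them to GRCh38 with HISAT2 2.1.0 and counted them on GENCODE release 33 genes with featureCounts 1.6.3 (versions from the submitters' processing notes). The deposited values are raw counts on 39321 genes, neither normalized nor filtered. GENCODE release 44 gave names and positions for 39148 of them, and 173 were not matched. Groups came from the labels, and 0 columns had no sample.

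Genes were tested if the 3 libraries of any group summed to 10 counts or more, 20916 labelled A498 and 21209 labelled 786-O, in R 4.3.3 with the quasi-likelihood F-test of edgeR 4.0.16 (TMM scaling, robust, legacy form, 1 mean per group over the 12 libraries of a line). Differences between lines were tested over all 24 libraries and 17999 genes. Adjusted p-values follow Benjamini and Hochberg over all genes tested, and a change needed an adjusted p under 0.05 and a log2 fold change over 0.5 in size. The common biological coefficient of variation was 0.0392 and 0.056, with 3 replicates per group. Each SE was derived from the test, as the size of the log2 fold change over the square root of F. It is a rough guide to precision, unreliable for values near 0 and where a group is close to empty. CPM used TMM-scaled library sizes and levels per kb the union of a gene's exons. The comparison of IFNγ in Cnsi cells was tried on simulated counts, with changes placed in well-counted genes only. Changes in genes with few counts, the interaction and the differences between lines were not tried in this way. The labels do not say what a replicate number marks. Same-numbered libraries of Cnsi IFNγ and PD-L1si IFNγ labelled A498 deviated together (correlations 0.118, 0.392 and 0.114), a pairing seen in the data alone.

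All 7 members were named, with genes drawn from 5 context lists (RNA adenosine deaminases, uracil repair, regulators of APOBEC3B, Vif ligase partners, restriction factors) that end a range or are, among those past the threshold, of the 6 largest changes of their list with IFNγ in Cnsi cells, IRF1, the neighbours within 250 kb, 4 lists of cell type markers and the 3 genes most like each member. HMCES and the genes at 0 are named beyond that rule, after their values were seen. The members and lists were chosen with earlier results of these data known. Alternatives were DESeq2 1.42.0, relative log expression scaling, no filter, filterByExpr, protein-coding genes, the replicate number as a block, a fit of the groups compared, each library left out, and transcript length for levels. Promoters came from RefSeq. Other lists were examined and are not reported here.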

Additional observations from a re-analysis of the deposited data

Results flagged for a closer look

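Each value here was a difference between the lines in a response to the same treatment, found by a test of the difference itself and given as labelled 786-O minus labelled A498 on the log2 scale. For IFNγ in Cnsi cells these were APOBEC3B at 2.19, APOBEC3C at 1.29, APOBEC3F at 0.88 and APOBEC3G at 6.28, the antisense gene APOBEC3B-AS1 at 2.07, and CD274 at -1.37. For PD-L1si under IFNγ it was CD274 at 1.87, its knockdown being smaller under the label 786-O. The line labels went against the check of line identity, so the direction of each difference is that of the labels. APOBEC3G passed the count filter under the label 786-O through its IFNγ groups alone.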

How the results depend on the processing

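Of 940 values of the members under the alternatives tried, 902 kept their direction and their side of the threshold, 2 fell below it, 7 came to pass it and 29 changed sign, and none of those 29 had passed. Of 1283 values of other genes past the threshold 1256 kept it and 27 fell below. Changed scaling moved the median of all genes by at most 0.0474 in size. The changes of sign were in values of at most 0.21 in size, apart from APOBEC3A with PD-L1si without IFNγ labelled 786-O at -0.53, which rests on 9 and 13 counts. The interaction of APOBEC3C labelled 786-O was 0.01 and became -0.00098 with DESeq2, -0.001 with relative log expression scaling, -0.01 with filterByExpr and -0.01 with protein-coding genes, and ran from -0.02 to 0.04 with a library left out. The line difference of APOBEC3H with IFNγ in Cnsi cells was 0.05 and became -0.005 with DESeq2 and -0.00049 with filterByExpr, running from -0.09 to 0.34 with a library left out, and that for PD-L1si under IFNγ was -0.04 and ran from -0.50 to 0.37. Libraries left out also carried APOBEC3H with PD-L1si without IFNγ labelled A498 (0.05) from -0.21 to 0.39, and APOBEC3A labelled 786-O with PD-L1si under IFNγ (0.21) from -0.30 to 0.67 and without IFNγ (-0.53) from -1.10 to 0.04. The cause was not tested. The count of all genes past the threshold for the interaction labelled 786-O was 21, 47 with no filter and 8 to 40 with a library left out. The members past it for the interaction labelled A498 numbered 0, and 0 to 1 with a library left out. The order of levels per kb was kept in 5 of 8 groups with the longest transcript. With the replicate number as a block, the members called were as many as without it in each comparison (4 with IFNγ in Cnsi cells labelled A498 and 3 labelled 786-O, and 0 with PD-L1si under IFNγ labelled A498). Over a line the numbers did not pair all libraries: the correlation of deviations exceeded 0.1 in 7 of 18 pairs in each line, and 7 and 5 of 12 libraries were most like one of their own number. Replicates differed by more than sampling noise in all 24 pairs (chi-square per degree of freedom 1.63 to 24.3). Depth limits APOBEC3A, APOBEC3D and APOBEC3H, and APOBEC3G without IFNγ labelled 786-O.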
